A study of Mus musculus with 32 samples.

Results

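Axon guidance genes were followed in the dendrites and the soma of the same single neurons. The members were the genes of the combined 3'UTR count table whose symbols name a semaphorin, plexin, neuropilin, ephrin, Eph receptor, Slit, Robo, netrin, Dcc or Unc5a to Unc5d, which gave 69 of the 44081 genes. These were 35 ligands and 34 receptors. The study held 32 libraries from 16 mouse hippocampal neurons of the strain C57BL/6, taken at embryonic day 18 and grown in culture for 15 days, and the dendrites and the soma of each neuron were aspirated into separate tubes. No neuron carried a transgene, a deletion or a treatment, so the comparison was that of 2 compartments of untreated cells. RNA was amplified by 3 rounds of aRNA amplification (linear copying of mRNA by in vitro transcription) in neurons 1 to 4 and by 2 rounds in neurons 5 to 16. As a model these neurons are limited in that they were grown dissociated, away from the tissue's own guidance cues, and that the authors took the axon to be small and did not aim to collect it, so that the dendrite libraries are no measure of axonal RNA.

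Guidance molecules are signals on cell surfaces or in the space between cells, and receptors on the growing neurite read them as attraction or repulsion. Semaphorins are read by plexins, with neuropilins as co-receptors for most class 3 members. Ephrins, which stay bound to the membrane, are read by the Eph receptor tyrosine kinases, Slits by Robo receptors, and netrins by Dcc and the Unc5 receptors. In hippocampal neurons the same families are also known from dendrite growth, spine formation and synapse maintenance, and several of the receptors act on the postsynaptic side.

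Total 3'UTR reads ranged from 646521 to 6954420 in the dendrites (median 1605714) and from 925525 to 21169974 in the somas (median 6165691), so that low genes were less well sampled in dendrites. The libraries of dendrites 15 and 16 stood apart from the others, with 35.8% and 32.4% mitochondrial reads against a median of 13.5% over all dendrites, and with reads of at least 10 in 0 and 4 guidance genes, respectively. Results are therefore also given without these 2 neurons. The neurons carried interneuron markers throughout: the summed level of Gad1, Gad2 and Slc32a1 was 1737 to 11316 CPM (reads of a gene scaled to a common library size) in dendrites and 1126 to 19881 CPM in somas, with reads of Gad1 and Gad2 in all 32 libraries. The 5 pyramidal cell markers summed to 395 to 6916 CPM in dendrites, most of it from Map2. Their somatic sum was 102 to 2423 CPM. At least 1 read of Map2 was present in 16 dendrites and 16 somas, and of Grin1 in 15 and 16. The counts were 13 and 14 for Camk2a, 13 and 13 for Slc17a7, and 11 and 11 for Neurod6. The paper reports high neuronal marker levels in all samples and singles out pyramidal ones, among them Grin1 and Neurod6. The 5 astrocyte markers summed to a median of 33.1 CPM in dendrites and 13.1 CPM in somas, the 6 microglial markers to 9.26 and 0.832 CPM, the 6 oligodendrocyte markers to 31.7 and 23.1 CPM, and the 5 endothelial markers to 1.74 and 0.227 CPM, with Cldn5 at 0 in every library. In single dendrite libraries the glial sums were much higher, up to 663 CPM for astrocyte, 386 CPM for microglial and 606 CPM for oligodendrocyte markers. Their part in the results below was not tested. CPM is a share of one compartment's own library, so the values compare composition and not the amount of RNA per compartment.

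Guidance RNAs were widespread but sparse, and each soma usually held more of them than its dendrites. With detection set at 10 reads or more, 20.2 ± 9.5 of the 69 genes were detected per dendrite library and 32.9 ± 8.2 per soma library (mean ± SD, n = 16 neurons). The soma had more in 15 of the 16 neurons, and the difference of soma and dendrites was 12.7 ± 11.1 genes over all 16. In neuron 5 the order was turned, 36 guidance genes for the dendrites against 25 for the soma. The same 15 of 16 neurons was found over all genes of the table, with 5827 ± 2064 genes per dendrite library and 9206 ± 1644 per soma library. The soma of the same neuron also held 75.3% of the guidance genes that its dendrites held, and 74.5% over all genes. Receptors were detected in 34.2% and ligands in 24.6% of the possible dendrite values, against 51.7% and 43.9% in somas. When both libraries of a neuron were thinned to the same number of reads, the soma values became 28.4 ± 7.0 and the soma had more in 13 neurons. Leaving out neurons 15 and 16 gave 22.9 ± 6.7 per dendrite and 33.3 ± 8.1 per soma library (n = 14).

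**Figure D1:**
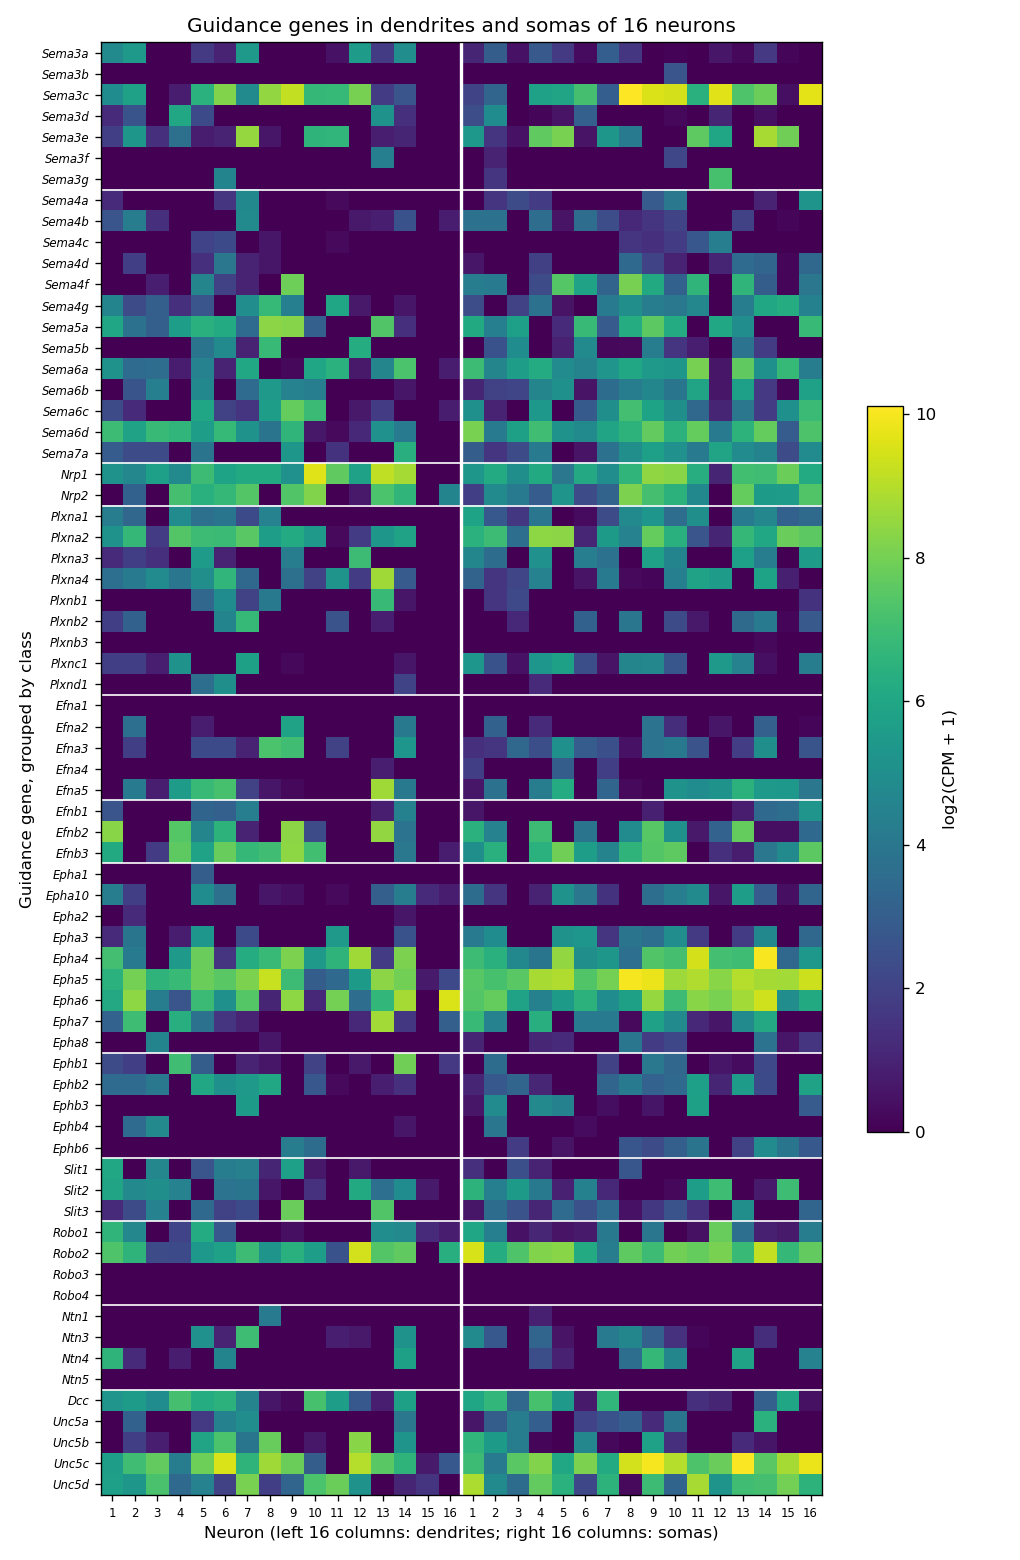
Levels of the 69 guidance genes (rows, grouped by class with white lines between classes) in the dendrites (left 16 columns) and somas (right 16 columns) of neurons 1 to 16, as log2(CPM + 1). Epha5, Epha6, Robo2 and Unc5c run through nearly every column, the columns of dendrites 15 and 16 are almost empty, and the rows of Efna1, Ntn5, Robo3 and Robo4 are at 0.

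**Figure D2:**
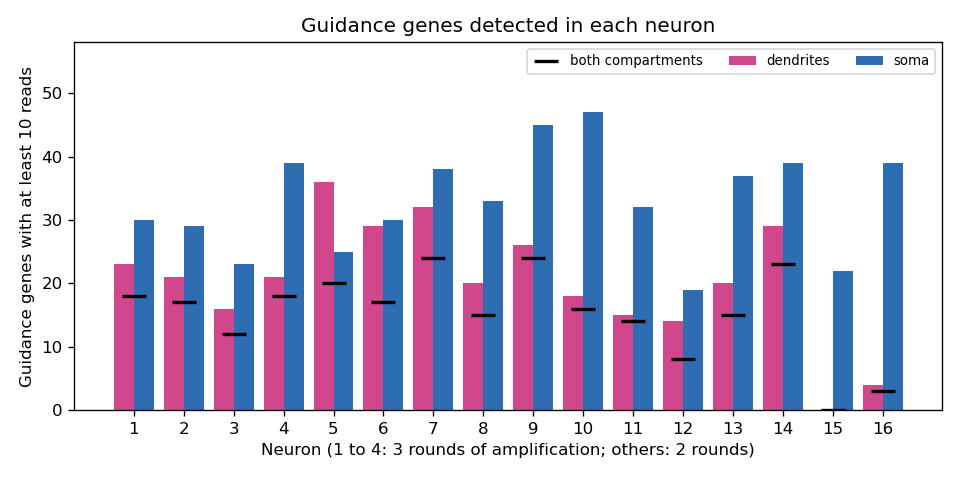
Number of guidance genes with at least 10 reads (y axis) in the dendrites and the soma of each neuron (x axis), with black bars for genes detected in both compartments. The soma bar is taller in every neuron except neuron 5, where 36 genes were detected in dendrites and 25 in the soma.

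All 69 genes are accounted for as follows. A total of 41 passed the filter for the compartment test (a read in 16 or more of the 32 libraries), a step that 24.7% of all genes passed. A further 24 had reads but too few libraries, and 4 had no read in any library: Efna1, an ephrin-A, Ntn5, a netrin, and Robo3 and Robo4, the Robo receptors of commissural neurons and of blood vessels. Of the 24, 16 had reads in more somas than dendrites and 6 in more dendrites than somas. Netrin ligands were the least represented, with 1 of 4 tested, and semaphorins of the membrane classes the most among the ligands, with 10 of 13.

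At least 1 read of 4 members was found in nearly every dendrite. Epha5, Epha6, Robo2 and Unc5c had reads in 15 or more of the 16 dendrites. That is 4 of 69, beside 4.23% of all genes of the table, and 4 of the 41 tested, beside 17.1% of the genes tested. By this count the guidance genes did not stand out. All 4 are receptors: Epha5 and Epha6 bind ephrin-As, Robo2 binds Slits and Unc5c is a netrin receptor linked to repulsion. Epha5 was the member with reads in all 16 dendrites. Dcc, Nrp1, Plxna2, Sema6a, Sema6d and Unc5d joined them when 14 dendrites were asked for, making 10 genes, and none reached 10 reads in 15 dendrites. In somas, 14 members had reads in at least 15 libraries, beside 14.2% of all genes.

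Because the libraries were counted over 3'UTRs, the annotated ends of the transcripts of Sema4f, the one gene called in the compartment comparison below, and of 3 of these receptors are shown. Each line is 30 bases near the 3' end of the transcript with the longest 3'UTR among those with the signal AATAAA, printed in capitals, in their last 50 bases, from the GENCODE vM21 transcripts (GRCm38), and read in the direction of the transcript. All lie in the 3'UTR of a last exon.
Sema4f, chr6:82911885-82911914, minus strand: aaacgtatgaacAATAAAgcattacccaga
Epha5, chr5:84054771-84054800, minus strand: attttttcagaaAATAAAaaacatttgaat
Robo2, chr16:73891848-73891877, minus strand: attaaagacagcAATAAAggctgcaagtat
Unc5c, chr3:141834891-141834920, plus strand: ttttaaacaggtAATAAAttatatttataa
The signal, which marks the site of cleavage and poly(A) addition, was searched on the transcript's strand, stood in the last 50 bases of 54.0% of the 42739 protein-coding transcripts examined, and was found in this way in 54 members. It is a description of the annotation, and whether these ends were the ones used in the cells was not measured here.

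Epha5 was the most evenly represented of the 4. Its dendritic level ran from 0.662 to 616 CPM (median 118) and its somatic level from 142 to 1011 CPM (median 427). The soma was higher in 13 of 16 neurons, and the somatic values overlapped the dendritic ones in range. The lowest dendrites were 15 and 16, with 1 and 5 reads. The fit gave a log2 fold change of dendrites over somas of -1.99 (SE 0.74), with an adjusted p of 0.0799 in edgeR's quasi-likelihood test, and it was therefore not called. It was called for the soma by edgeR with DESeq2 size factors and by DESeq2, which called 46.2% of all genes in that direction. The exact sign-flip permutation test of the paired log2(CPM + 1) differences, two-sided, gave p = 0.000732, or 0.0366 adjusted over the 31102 genes with reads, with a mean difference of -2.37. Without neurons 15 and 16 that adjusted p was 0.114, the unadjusted exact sign-flip p 0.00293 and the mean difference -1.63. The sign-flip test then called 0 of the 31102 genes in either direction, so the lost call cannot show whether that of Epha5 rests on those 2 neurons.

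Epha6 was spread over a wider range. It lay between 0 and 747 CPM in dendrites (median 85.9) and between 20.8 and 675 CPM in somas (median 107). Its highest dendritic value belonged to neuron 16, whose dendrites held reads of at least 10 for 4 guidance genes in all. The soma was higher in 12 neurons, and the log2 fold change was -1.33 (SE 0.87, adjusted p = 0.281, edgeR). Per kilobase of annotated 3'UTR, Epha6 had the highest mean level of the family in both compartments, 308 CPM per kb in dendrites and 345 in somas, followed by Nrp1 at 289 and 198. Both have short annotated 3'UTRs (537 and 549 bases), and where the authors' regions were longer these 2 values are too high.

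Robo2 and Unc5c showed the same lean to the soma. Robo2 ranged from 0 to 681 CPM in dendrites (median 66.7) and from 18.4 to 736 CPM in somas (median 198), with the soma higher in 12 neurons (log2 fold change -1.90, SE 0.87, unadjusted p = 0.0340, adjusted p = 0.137, edgeR). Unc5c ranged from 0 to 751 CPM in dendrites (median 113) and from 17.8 to 1071 CPM in somas (median 250), with the soma higher in 10 neurons (log2 fold change -1.60, SE 0.93, adjusted p = 0.228, edgeR). For both the ranges of the compartments overlapped almost throughout. Per kilobase, somatic Epha5, Unc5c and Robo2 had mean levels of 71.2, 61.2 and 54.3 CPM per kb, close to each other beside SDs over neurons that were of the order of the means. Without the division by length these means were 436, 389 and 234 CPM.

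**Figure D3:**
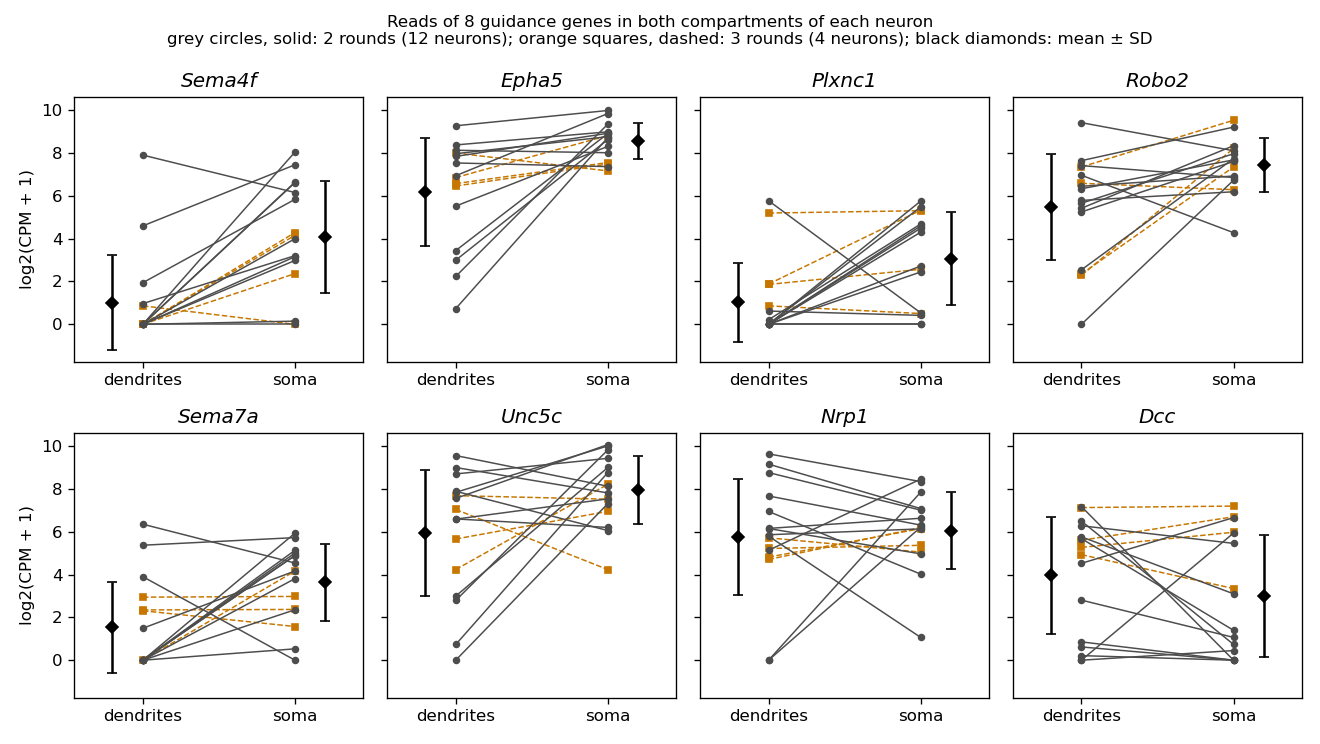
Levels of 8 guidance genes in the dendrites and the soma of each neuron, as log2(CPM + 1), with a line per neuron (grey for 2 and orange for 3 rounds of amplification) and the mean ± SD of the 16 libraries of a compartment beside it. Most lines of Sema4f and Epha5 rise from dendrites to soma, with the soma higher in 13 of 16 neurons, while those of Nrp1 go 8 in each direction and those of Dcc fall in 10 neurons.

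The compartment comparison asked which guidance RNAs take a larger share of the dendritic than of the somatic library. Among the 41 genes tested, 33 had a log2 fold change below 0 (higher in somas) and 8 above it. This is the direction of the whole table, in which 78.8% of the 10880 genes tested lay below 0 and the median was -1.49. The median of the guidance genes was -1.33, and 20 lay below and 21 above the median of all genes. Relative to that median the guidance genes were thus split evenly.

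A single member was called, Sema4f, a transmembrane semaphorin found at synapses. Adjusted p of at most 0.05 was reached by 1 of 41 in the soma direction and 0 of 41 in the dendrite direction, beside 5.71% and 0.827% of all genes. At an unadjusted p under 0.05 these were 7 and 0 members, beside 26.7% and 3.55%. DESeq2, which called far more genes in all, called 16 members in the soma direction, beside 46.2% of all genes, and 0 in the dendrite direction, beside 4.26%. In the dendrite direction, 1 member, Sema3a, had an unadjusted p under 0.05 in DESeq2 (log2 fold change 1.82, SE 0.91, adjusted p = 0.0823), beside 5.52% of all genes, and in the soma direction 20 members did, beside 51.5%. When the dendrite libraries were rescaled so that the median of all genes was near 0, edgeR called 548 genes for dendrites and 92 for somas in place of 90 and 621, and 0 members in either direction. The members' shares were thus no higher than those of the whole table in these fits.

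**Figure D4:**
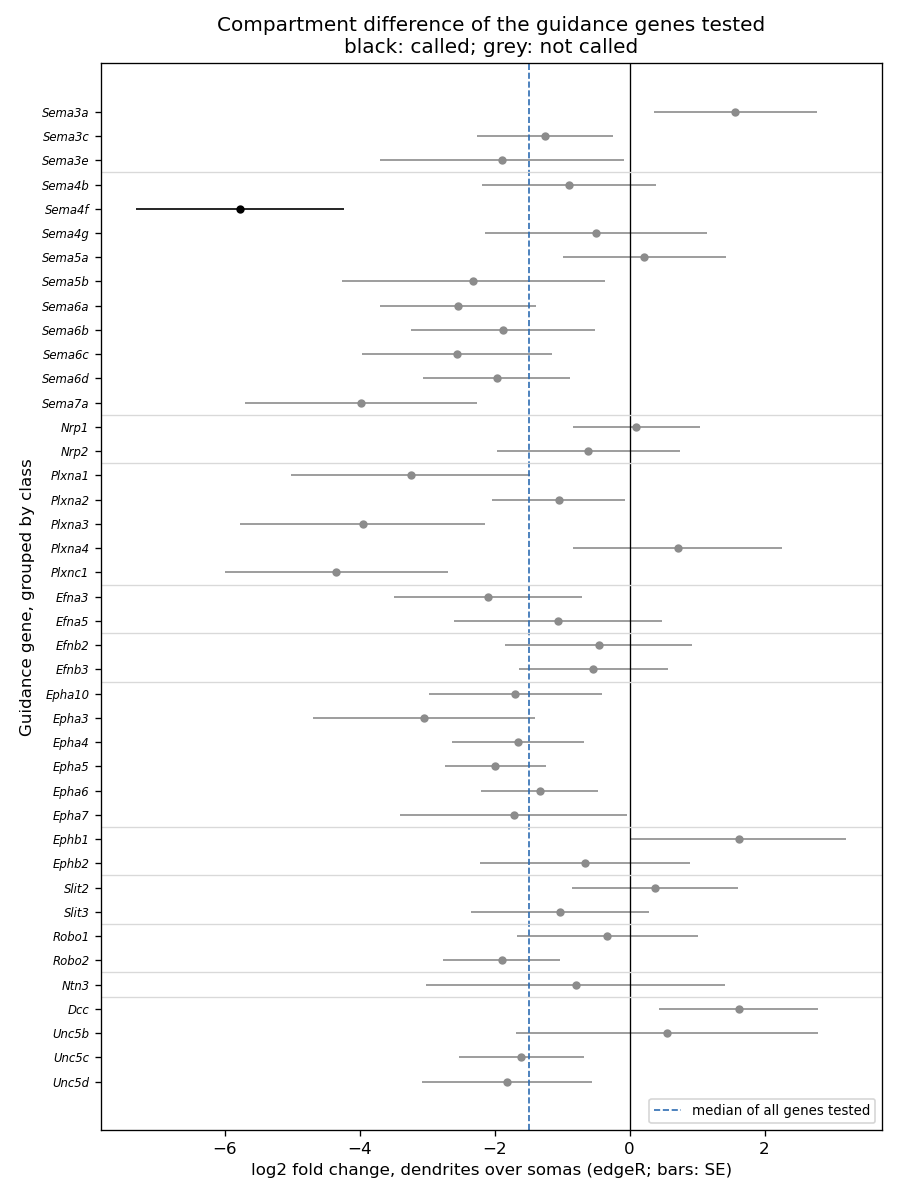
Log2 fold changes of dendrites over somas with standard errors (edgeR) for the 41 guidance genes tested, grouped by class, with a solid line at 0 and a dashed line at the median of all genes tested (-1.49). Sema4f, in black, is the gene called. Most others have error bars that reach one of the lines.

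Sema4f had no read in 11 of the 16 dendrites. Its somatic levels ran from 0 to 263 CPM (median 15.9), with reads in 14 somas. The 5 dendrites with reads held 0.817, 23.2, 2.85, 0.956 and 238 CPM, in neurons 3, 5, 6, 7 and 9. The soma was higher in 13 neurons, the dendrites in 2 (neurons 3 and 9), and neuron 12 had no read in either. The log2 fold change was -5.77 (SE 1.54, p = 0.000438, adjusted p = 0.0215, edgeR), and the exact sign-flip permutation test gave p = 0.000671, or 0.0356 adjusted over all genes with reads. The means were closer than the fit, 16.6 ± 59.3 CPM in dendrites and 52.3 ± 74.9 CPM in somas (SD, n = 16), since neuron 9 alone held 89.5% of the summed dendritic level. The edgeR call was lost without neurons 15 and 16 (log2 fold change -5.54, adjusted p = 0.0521, with an exact sign-flip adjusted p of 0.0861), without neuron 13 (-5.10, 0.0555) and without neuron 16 (-5.35, 0.0604). Within the neurons of 2 rounds the log2 fold change was -6.11 (SE 1.87, adjusted p = 0.0503), and within those of 3 rounds -4.46 (SE 2.81, adjusted p = 0.869, n = 4 neurons, edgeR). The direction was the same in all of these fits.

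In the class of membrane semaphorins, 9 of the 10 tested lay below 0, Sema4f included, with a class median of -2.14. Sema7a, which is anchored to the membrane by a lipid and signals through Plxnc1 and integrins, had reads in 7 dendrites and 15 somas. It reached 80.5 CPM in dendrites (median 0) and 60.05 CPM in somas (median 16.9), with the soma higher in 13 neurons (log2 fold change -3.98, SE 1.72, unadjusted p = 0.0246, adjusted p = 0.117, edgeR). Sema6a, a transmembrane ligand of Plxna2 and Plxna4, had reads in 14 dendrites and in all 16 somas, from 0 to 154 CPM (median 11.0) and from 0.546 to 262 CPM (median 40.9), and its fitted log2 difference was -2.55 (SE 1.16, unadjusted p = 0.0325, adjusted p = 0.134, edgeR). Both genes thus leaned to the soma without passing the adjustment in edgeR, while DESeq2 called both for the soma, beside 46.2% of all genes. Sema6d, a ligand of Plxna1, was higher in the soma of 12 neurons, with medians of 34.7 and 91.0 CPM in dendrites and somas. Sema5a was the member of the class on the other side of 0, at 0.22 (SE 1.21), with medians of 11.8 CPM in dendrites and 40.8 CPM in somas. Its dendrites and its soma were each higher in 7 neurons.

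The secreted class 3 semaphorins did not share a direction: 3 of 7 were tested, with 2 below and 1 above 0. Sema3c, a ligand of both neuropilins, was the most abundant, with 0 to 579 CPM in dendrites (median 41.7) and 0 to 1115 CPM in somas (median 111), higher in the soma of 9 neurons and in the dendrites of 6 (log2 fold change -1.25, SE 1.00, adjusted p = 0.376, edgeR). The somatic values fell far apart from each other, with 707 CPM or more in neurons 8, 9, 10, 12 and 16 and 232 CPM or less in the others. Sema3a, the classical collapsing factor, had reads in 9 dendrites and 13 somas. It reached 47.8 CPM in dendrites (median 0.676) and 7.18 CPM in somas (median 0.481). Its log2 fold change was 1.57 (SE 1.21, adjusted p = 0.358, edgeR), and the dendrites were higher in 9 neurons. Sema3e, which can bind plexin D1 without a neuropilin, had medians of 1.01 and 28.8 CPM in dendrites and somas, with 58.9% of the summed dendritic level in neuron 7.

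Both neuropilins, the class 3 co-receptors, were shared between the compartments. Nrp1 had 0 to 793 CPM in dendrites (median 55.7) and 1.09 to 349 CPM in somas (median 72.5), and was higher in 8 neurons on each side (log2 fold change 0.098, SE 0.94, edgeR). Nrp2 had 0 to 292 CPM (median 53.6) and 0 to 277 CPM (median 32.5), again with 8 neurons on each side (log2 fold change -0.61, SE 1.36, edgeR). These values leave the direction of both undetermined, since the SEs were larger than the differences.

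The plexins, the signalling receptors of semaphorins, included the lowest fold changes among the receptors. Plxnc1, the receptor of Sema7a, had reads in 7 dendrites and 14 somas, with up to 53.6 CPM (median 0) and up to 53.0 CPM (median 12.2). The soma was higher in 11 neurons and the dendrites in 3 (log2 fold change -4.35, SE 1.65, unadjusted p = 0.0114, adjusted p = 0.0835, edgeR). A single dendrite, that of neuron 7, held 55.8% of the dendritic level. Plxna3, a partner of neuropilins, lay at -3.96 on the log2 scale (SE 1.82, unadjusted p = 0.0343, adjusted p = 0.137, edgeR) with medians of 0 and 15.7 CPM. Plxna2 was the plexin with reads in 14 dendrites and all somas, at medians of 46.9 and 86.5 CPM. Plxna4 lay at 0.72 (SE 1.55), with 60.01% of its dendritic level in neuron 13, whose dendrites also held 384 CPM of the microglial marker Cx3cr1. The 6 microglial markers summed to 386 CPM in that library, so nearly all of this came from Cx3cr1 and hardly any from the others. Of the plexins that were not tested, Plxnb1, a receptor of Sema4d, had reads in 6 dendrites and 3 somas, and Plxnb3 had reads in 1 soma.

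Among the A-type ephrins and their receptors, all 6 EphA receptors tested lay below 0, with a median of -1.71. Epha4, which binds ephrins of both classes and acts on dendritic spines, had 0 to 409 CPM in dendrites (median 59.8) and 9.74 to 1048 CPM in somas (median 103), with the soma higher in 10 neurons (log2 fold change -1.65, SE 0.98, adjusted p = 0.234, edgeR). Of the ephrin-As, Efna5 was found in 10 dendrites (median 0.676 CPM) and 14 somas (median 16.7 CPM) and split 8 to 8 in direction. Its highest value, 409 CPM, was again in the dendrites of neuron 13, which held 54.6% of the summed level. Efna3 had medians of 0.478 and 4.78 CPM and lay at -2.10 (SE 1.40, adjusted p = 0.288, edgeR). Efna2 had reads in 4 dendrites and 7 somas and was not tested.

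The B-type ephrins, which span the membrane and can signal back into the cell that carries them, were as high in dendrites as in somas by their means. Efnb3 had 79.0 ± 102 CPM in dendrites and 75.3 ± 80.6 CPM in somas (SD, n = 16), and Efnb2 had 82.0 ± 134 and 45.03 ± 68.9 CPM. Their medians were lower in dendrites, at 35.6 and 40.3 CPM for Efnb3 and 2.51 and 12.0 CPM for Efnb2. Efnb2 had no read in 7 dendrites and 3 somas. The dendrites were higher in 8 neurons and the soma in 7 for both, and the log2 fold changes were -0.54 (SE 1.11) and -0.46 (SE 1.38). Efnb1 was not tested, with reads in 6 dendrites and 6 somas. Among the EphB receptors, which act in excitatory synapse formation, Ephb2 had medians of 3.70 and 7.02 CPM (log2 fold change -0.66, SE 1.56). Ephb1 was at 1.62 (SE 1.60, adjusted p = 0.477, edgeR), with 62.2% of its dendritic level in neuron 14. Ephb3 had reads in 1 dendrite and 8 somas.

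The Slits and the second Robo receptor were sparse beside Robo2. Robo1 had reads in 10 dendrites and 14 somas, at medians of 1.033 and 0.975 CPM, and was fitted at -0.33 (SE 1.34, adjusted p = 0.878, edgeR). Slit2 had reads in 12 dendrites and 12 somas at medians of 12.7 and 8.64 CPM, with 7 neurons higher on each side (log2 fold change 0.37, SE 1.23). Slit3 had medians of 0.669 and 3.39 CPM, and 51.7% of its dendritic level lay in neuron 9. Slit1 had reads in 9 dendrites and 4 somas, too few libraries for the edgeR fit. It reached 66.9 CPM in dendrites (median 0.589) and 5.53 CPM in somas (median 0), was higher in the dendrites of 8 neurons and in the soma of 2, and gave p = 0.0254 in the exact sign-flip permutation test, or 0.200 adjusted over all genes with reads. It was the single member with an unadjusted p under 0.05 in the dendrite direction of that test, in which 3.01% of all genes were found, against 12 members and 14.3% in the soma direction. After adjustment the test called Sema4f and Epha5 for the soma, beside 2.34% of all genes, and none for dendrites, beside 0.604%. Without neurons 15 and 16 it called 0 members and 0.0% of all genes in either direction. Its counts at an unadjusted p under 0.05 were then 3 members for dendrites (Slit1, Dcc and Efnb1), beside 2.75% of all genes, and 8 for the soma, beside 10.5%.

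Among the netrin receptors, Dcc, which mediates attraction, stood at the dendritic end. It had 0 to 143 CPM in dendrites (median 33.4) and 0 to 146 CPM in somas (median 4.60), with reads in 14 dendrites and 12 somas. The dendrites were higher in 10 neurons and the soma in 6, and the ranges of the compartments coincided (log2 fold change 1.62, SE 1.18, adjusted p = 0.333, edgeR). Its mean paired difference on the log2(CPM + 1) scale was 0.96 (exact sign-flip permutation p = 0.237), and without neurons 15 and 16 it was 1.55 (exact p = 0.0428, adjusted p = 0.350). By rounds, the dendrites were higher in 9 of the 12 neurons of 2 rounds and in 1 of the 4 of 3 rounds, and the log2 fold changes were 2.71 (SE 1.63) and 0.032 (SE 1.30). The difference between the rounds was not past the threshold (log2 -2.73, SE 2.26, unadjusted p = 0.232, edgeR). Unc5d lay on the somatic side with Unc5c, at medians of 15.8 and 91.9 CPM (log2 fold change -1.81, SE 1.26, adjusted p = 0.308, edgeR). Netrin ligands were found in few libraries: Ntn1 had reads in 1 dendrite and 1 soma, Ntn4 in 5 and 7, and Ntn3 in 6 and 10. Where present they could be high, with up to 95.0 CPM of Ntn4 in a dendrite and 106 CPM in a soma, and 126 CPM of Ntn3 in a dendrite. The value of Ntn3 (log2 fold change -0.80, SE 2.22) is uncertain, as its annotated 3'UTR overlaps an exon of Tbc1d24 on the same strand.

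Ligand and receptor were then counted together, for 22 known ligand and receptor combinations, as the number of libraries in which both had at least 10 reads. In 13 combinations more somas than dendrites held both, and in 5 more dendrites did. Single members reached 10 reads in 47.7% of the soma values and 29.3% of the dendrite values, and other gene pairs were not counted. The counts are thus no sign of a link between ligand and receptor. Sema3c with Nrp1 was found in 11 dendrites and 11 somas, the most of any in dendrites. Efnb3 with Epha4 followed with 8 dendrites and 12 somas, Slit2 with Robo2 with 7 and 8, and Efna5 with Epha5 with 6 and 11. Sema6a with Plxna2 was found in 6 dendrites and 14 somas. Sema7a with Plxnc1 was found in 8 somas and in 0 dendrites, and Ntn1 with Dcc in 0 of either. Taken singly, Sema7a reached 10 reads in 3 dendrites and Plxnc1 in 2. Ligand and receptor of one cell's RNA say nothing of contact between cells.

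Within a single neuron, the RNA of a guidance gene was often found in one compartment. The dendritic share was taken as the dendritic CPM over the sum of both compartments, for neurons with at least 10 reads of the gene in all and for the 54 members with at least 5 such neurons. Of the 599 values, 249 lay under 0.1, 80 over 0.9 and 270, or 45.1%, between. Over all 12712 genes treated in the same way, 49.1% lay between, 39.7% under 0.1 and 11.2% over 0.9. Among members with at least 12 neurons, the median share was 0.702 for Dcc, 0.640 for Ephb2 and 0.607 for Efnb2 at the upper end, and 0 for Sema4f and Sema7a at the lower end. Unc5b, a netrin receptor, was the most divided, with 5 neurons under 0.1, 5 over 0.9 and 2 between. Single libraries carried much of some genes: in 11 of the 41 genes tested, 1 dendrite library held over 50% of the summed dendritic level, against 1 gene, Robo1, in somas. Over all genes tested these shares were 25.1% for dendrites and 7.56% for somas.

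**Figure D5:**
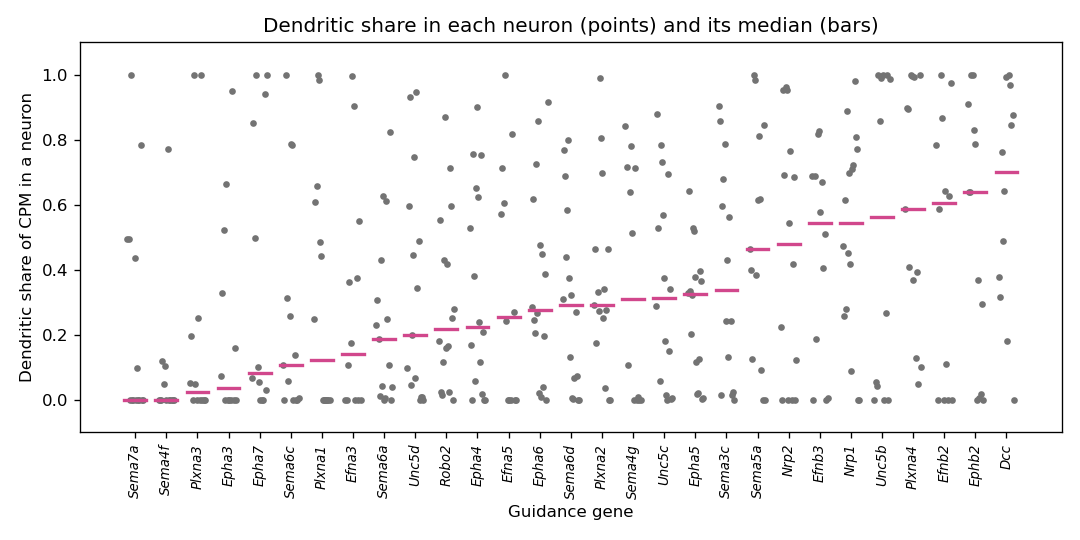
Dendritic share of the CPM of a gene in each neuron (grey points, dendrites over dendrites plus soma) and its median (pink bars) for the members with at least 10 reads in at least 12 neurons, ordered by the median. The medians run from 0 for Sema4f and Sema7a to 0.702 for Dcc, and for nearly every gene the points span most of the axis.

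The number of amplification rounds is the technical grouping that the labels name. The sample titles also carry a letter whose meaning is not given in the sources used here: B and H for the neurons of 3 rounds, I, M and N for neurons 5 to 14, and P for neurons 15 and 16. Sema4f was higher in the soma of 2 of 2 neurons under B, 1 of 2 under H, 4 of 4 under I, 2 of 3 under M, 2 of 3 under N and 2 of 2 under P. For Dcc, the dendrites were higher in 9 of the 10 neurons under I, M and N and the soma in both under P. In edgeR, the interaction of compartment and rounds was past the adjusted threshold for 0 members and 0 of all genes, and past an unadjusted p under 0.05 for 3 members, Unc5b, Ntn3 and Plxnc1, beside 2.65% of all genes. DESeq2 called 1 member, Unc5b, beside 0.404% of all genes. For Plxnc1 the log2 fold change was -6.65 (SE 2.09, adjusted p = 0.0558) in neurons of 2 rounds and -0.86 (SE 2.12, adjusted p = 0.975) in those of 3 rounds, with a difference of 5.58 (SE 2.76, unadjusted p = 0.0488, edgeR). Robo2 was at -1.47 (SE 1.08) and -3.24 (SE 1.14).

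Alternative 3'UTR isoforms were compared for the 10 members with enough reads on 2 isoforms. The isoform table counts reads over the last 500 bases of each 3'UTR end, and the share of the higher-numbered of a gene's top 2 features was compared between the compartments of each neuron. The numbering's order along the gene is not given in the sources used here, so no feature is called near or far from the coding sequence. No member differed between compartments after adjustment over the 3522 genes considered, by the exact sign-flip permutation test, and none of those genes did. At an unadjusted p under 0.1 there was 1 member, Unc5c, beside 8.35% of the genes considered, and an exact Wilcoxon signed-rank test also gave 1. For Unc5c the share was 0.0038 ± 0.0125 in dendrites and 0.0249 ± 0.0315 in somas (SD, n = 12 neurons, exact permutation p = 0.0469, adjusted p = 0.913), so that nearly all reads came from 1 feature in both. The SD of the share over neurons was larger in dendrites for 7 of the 10 members and larger in somas for Epha4, Nrp1 and Unc5c. This was not counted over all genes here. The paper also found a larger variance in the soma for a minority of all its genes with several 3'UTRs, so the split is not particular to the members. For the 3 of the 7 measured in the most neurons, the shares in dendrites and somas were, for Epha5, 0.561 ± 0.447 and 0.760 ± 0.140 (n = 13), for Robo2 0.687 ± 0.386 and 0.810 ± 0.083 (n = 10) and for Sema6d 0.259 ± 0.421 and 0.018 ± 0.056 (n = 10).

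Other genes of the guidance pathways were taken from a list of 88 co-receptors, cytoplasmic adaptors, collapsin response mediators, actin effectors and other signalling proteins. Of these 74 were tested, 66 below and 8 above 0, with a median of -1.44. In edgeR 1 was called for the soma (1.35% of those tested, beside 5.71% of all genes) and 1 for dendrites (1.35%, beside 0.827%), and in DESeq2 38 (51.4%, beside 46.2%) and 1 (1.35%, beside 4.26%). Nck1, an adaptor that links Eph and Dcc signals to actin, had reads in 9 dendrites and all 16 somas, with medians of 0.865 and 22.9 CPM, and was higher in the soma of 14 neurons (log2 fold change -5.05, SE 1.41, adjusted p = 0.0266). Vav3, a signalling protein downstream of Eph receptors, had reads in 11 dendrites and 5 somas. It reached 130 CPM in dendrites (median 0.883) and 1.97 CPM in somas (median 0), and was higher in the dendrites of 11 neurons and in the soma of 2 (log2 fold change 4.48, SE 1.36, adjusted p = 0.0394, edgeR). Without neurons 15 and 16 neither was called, with a log2 fold change of -4.71 for Nck1 (adjusted p = 0.0733) and of 4.62 for Vav3 (adjusted p = 0.0969, edgeR). Leaving out 1 neuron lost the call of Nck1 for neurons 12, 13, 15 and 16 and that of Vav3 for neurons 1, 8, 10, 12, 13, 14 and 16, and Vav3 had too few libraries to be tested without neuron 3, 4 or 6. At an unadjusted p under 0.05 there were 22 partners for the soma, 29.7% of those tested beside 26.7% of all genes, and 1 for dendrites, 1.35% beside 3.55%. Among the next smallest p values in the soma direction was that of Vasp, which promotes actin filament growth (log2 fold change -3.98, SE 1.42, adjusted p = 0.0708, edgeR). In the dendrite direction they were those of Rgma, a ligand of the Dcc relative Neo1 (2.47, SE 1.62, adjusted p = 0.281), and Limk1, a kinase that acts on cofilin (0.77, SE 0.82, adjusted p = 0.513). Limk1 had reads in all 32 libraries, at medians of 107 and 49.9 CPM, and was higher in the dendrites of 13 neurons. By class, the 9 partners of the soma direction among the 18 co-receptors and other surface proteins tested were the most of any class.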

How the data were processed

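The deposited files were gene-level counts over 3'UTRs and over exons and counts per 3'UTR isoform. The authors trimmed the reads, aligned them to mm10 with STAR (version 2.4.0 in the submitters' processing notes) and counted uniquely mapped reads by strand with VERSE. 3'UTRs were the union of several annotations, and an isoform was counted over the last 500 bases of its end, so genes with long or unannotated ends can be under- or overcounted. Amplification copies are not independent molecules, and the number of reads limits precision most in dendrites.

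Counts were normalized by TMM and tested with edgeR 4.0.16 (quasi-likelihood, robust) in R 4.3.3 over 10880 genes (those with a read in 16 or more of the 32 libraries), with neuron as a block and Benjamini-Hochberg adjustment over all of them, and called at an adjusted p of 0.05. The pairing comes from the cells: each neuron gave both libraries. Deviations of the 2 libraries of a neuron correlated at 0.089 ± 0.077 (n = 16), against -0.0056 ± 0.053 between neurons (n = 240). CPM values use the TMM library sizes, and log2 values a pseudocount of 1. Sign-flip tests enumerated all sign patterns and can give no p below 3.05e-05. Alternatives were DESeq2 1.42.0 and the settings listed with their effect in the last part. The fit was tested on simulated data. No 2 of the 496 library pairs held identical counts.

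Members were named where they had an unadjusted p under 0.05, were among the 3 highest of their class by mean CPM, had reads in at least 15 dendrites or had a tested isoform share, and partners where they were called or had 1 of the 3 smallest p in a direction. One partner that met this rule is not reported here. Other members are named only to account for all by their reads. The members and lists were chosen with earlier results of these data known. Positions, 3'UTR lengths and sequences are from GENCODE vM21 (GRCm38), which may differ from the authors' 3'UTR regions; all 69 members matched by symbol.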

Additional observations from a re-analysis of the deposited data

Results flagged for a closer look

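The compartment difference of Unc5b, a netrin receptor, differed between the neurons of 3 and of 2 rounds of amplification by -11.15 on the log2 scale in DESeq2 (adjusted p = 0.00984, Wald test of the interaction), while edgeR gave -9.04 with an unadjusted p of 0.0126 and an adjusted p of 1.0. In the 4 neurons of 3 rounds the dendrites held 0, 2.64, 0.817 and 0 CPM and the somas 99.9, 45.4, 18.8 and 0.139 CPM, so the soma was higher in each. In the 12 neurons of 2 rounds the dendrites were higher in 6 and the soma in 3, the dendrites reaching 318 CPM and the somas 54.1 CPM, and 3 neurons had no read in either. Pooled, the log2 fold change was 0.55 (SE 2.24, adjusted p = 0.878, edgeR). The neurons of 3 rounds are other cells than those of 2 rounds, so cell and amplification cannot be told apart.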

How the results depend on the processing

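The count of members called for dendrites was 0 under every setting run, and leaving out each neuron in turn gave 0 to 1 member for the soma (0 without neuron 13 or without neuron 16), 0 to 1 partner for dendrites and 0 to 3 partners for the soma. For the soma, members called were 2 with DESeq2 size factors in edgeR and 16 with DESeq2, and 0 with rescaled dendrites, no filter beyond 1 read, at least 10 reads in at least 16 libraries (where Sema4f was not tested), no replicate block, neurons of 2 rounds only, neurons of 3 rounds only and without neurons 15 and 16. Partners called for dendrites were 2 with rescaled dendrites and 0 with no filter, with at least 10 reads, with neurons of 2 or of 3 rounds only and without neurons 15 and 16. Partners called for the soma were 3 with DESeq2 size factors, 2 with 2 rounds only and 38 with DESeq2, and 0 with rescaled dendrites, no filter, exon counts, no replicate block, 3 rounds only and without neurons 15 and 16. The setting without neurons 15 and 16 was chosen after seeing the data. Over all genes, edgeR called 90 for dendrites and 621 for the soma, against 463 and 5029 in DESeq2, 157 and 77 with no replicate block, 15 and 143 with no filter and 3 and 1 with neurons of 3 rounds only. With no replicate block the pairing is dropped, and the log2 fold change of Sema4f was -1.64 (adjusted p = 0.538). The DESeq2 interaction with rounds gave 1 member in place of 0. At 1 read in place of 10, 32.1 members were detected per dendrite and 42.0 per soma library. Members with reads in nearly all dendrites were 10 at 14 dendrites, 1 at 16 and 0 at 10 reads in 15. The isoform counts stayed at 0 after adjustment in every setting run, all settings of which had 1 or 2 members with an unadjusted p under 0.1.

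No gene whose log2 fold change changed sign was called by edgeR with all neurons or under the setting that turned it, but Epha6 and Sema6d were called for the soma by DESeq2. With rescaled dendrites it was 0.38 for Efna5, 0.98 for Efnb2, 0.90 for Efnb3, 0.16 for Epha6, 0.78 for Ephb2, 0.87 for Nrp2, 0.39 for Ntn3, 0.43 for Plxna2, 1.05 for Robo1, 0.21 for Sema3c and 0.34 for Slit3. With no replicate block it was 1.30 for Efna3, 0.88 for Efna5, 0.86 for Efnb2, 0.069 for Efnb3, 0.19 for Ephb2, 0.16 for Nrp2, 1.06 for Ntn3, -0.83 for Slit2 and 2.20 for Slit3. With exon counts it was 0.28 for Efnb2, 0.065 for Efnb3, 0.28 for Epha6, -0.0054 for Nrp1, 1.19 for Robo1, -0.93 for Slit2 and 1.02 for Slit3. With neurons of 3 rounds only it was 0.98 for Efna5, 0.85 for Efnb3, 0.85 for Ephb2, -0.47 for Nrp1, 0.51 for Robo1, 1.16 for Sema3c and 0.47 for Sema6d, and with neurons of 2 rounds only 1.71 for Ntn3. Without neurons 15 and 16 it was 0.083 for Efnb2, 0.071 for Efnb3 and 0.047 for Nrp2. DESeq2 size factors gave -0.18 for Nrp1 and -0.020 for Sema5a, and DESeq2 -0.18 for Nrp1 and 0.66 for Ntn3. On the log2(CPM + 1) scale the mean differences were -0.32 for Nrp1, -0.13 for Sema5a and -0.13 for Slit2. Leaving out each neuron in turn gave ranges of -0.97 to 0.30 for Efnb2, -0.87 to 0.065 for Efnb3, -1.17 to 0.044 for Ephb2, -0.12 to 0.64 for Nrp1, -1.04 to 0.032 for Nrp2, -1.76 to 0.30 for Ntn3, -0.81 to 0.42 for Robo1 and -0.17 to 0.83 for Sema5a. The cause was not tested, and the precision is set by the number of neurons and by the reads in dendrites.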
